A study of Mus musculus with 81 samples.

Results

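The T cell receptors described here carry a long CDR3β, the loop of the receptor's β chain that makes most of the contact with a peptide held by an MHC molecule. A rearrangement, 1 distinct β chain nucleotide sequence listed in 1 library, was taken as long when it was productive, meaning in frame with no stop codon, and its CDR3 held 17 or more residues. The OT-1 receptor (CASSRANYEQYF) and the receptor of the lymphoma (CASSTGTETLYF), which were put into the mice, were left out, and the remaining receptors are called endogenous. By this rule 10532 of 379294 productive rearrangements in 81 libraries were long. They comprised 10403 distinct nucleotide sequences and 9772 distinct CDR3s, and every other endogenous productive rearrangement, 367405 in all, served for comparison.

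A β chain gene is cut and joined in the thymus from a V, a D and a J segment. The enzymes trim bases from the segment ends, and terminal transferase adds N bases, which no segment encodes, at the V-D and D-J joints. CDR3 length follows from how much of each segment is kept and how many N bases are added, and thymocytes then pass selection on the receptor they made. Very long CDR3s are rare in peripheral T cells.

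The mice were Pep Boy mice (B6.SJL-Ptprca Pepcb/BoyJ, which carry CD45.1), all given a transfer of OT-1 T cells that recognise an ovalbumin peptide. In the treatment experiment, 15 mice bore EG7.OVA, a subcutaneous T cell lymphoma made from EL4 to express ovalbumin, received 1e6 OT-1 cells, and were dosed on days 0 and 3 with engineered red cells, 5 mice in each of 3 arms. The mRBC-CTRL arm received 1e9 control cells, and the 2.5E8 and 1E9 arms received 2.5e8 and 1e9 cells of mRBC-OVA-4-1BBL-IL-12, which present the ovalbumin peptide on MHC together with 4-1BBL and IL-12. Blood from day 0, drawn before the dose, blood from day 7 and the day 7 tumor were sequenced. For mouse 1 of the mRBC-CTRL arm no day 7 blood, and for mouse 1 of the 1E9 arm no day 0 blood, was analysed here. In the rechallenge experiment, 7 mice cured at the 2.5e8 dose after 1e6 OT-1 cells were given EG7.OVA again on day 66 and EL4 on day 127, with blood from days 65 and 73 and from 1 day before and 9 days after EL4, and 5 naive mice given 5e5 OT-1 cells on day 65 were bled on days 65 and 73 around the same EG7.OVA challenge. The library of day 73 worded as that of another cured mouse was placed with cured mouse 2 by its animal code. Ages were not given in the labels used here.

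DNA was sequenced, so templates are the assay's estimate of rearranged gene copies, whether or not the cell used them, and expression was not measured. Endogenous templates ranged from 482 to 23605 per library and long rearrangements from 10 to 471. The smallest library, day 7 blood of 1E9 mouse 5, held 10 long rearrangements. Tumor libraries held 380 to 4134 endogenous rearrangements, and because the tumor is itself a T cell lymphoma, part of the productive templates there came from the lymphoma receptor left out above.

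The sequences below run 5′ to 3′ from the codon of the first cysteine to the end of the 87-base read, which stops 3 bases short of the last CDR3 codon's end. Capitals mark the bases deposited as N. The first 4 lines are the long clones that made up 1% or more of the endogenous templates of a library. The next 2 are the clones of cured mouse 7 that were followed over 4 bleeds, the 3 after them encode the same 17-residue CDR3 with different V segments, and the last is the longest CDR3 of the series.
TCRBV13-02 and TCRBJ01-04, tumor of mRBC-CTRL mouse 1: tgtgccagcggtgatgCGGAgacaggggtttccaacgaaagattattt
TCRBV05-01 and TCRBJ02-04, tumor of 2.5E8 mouse 5: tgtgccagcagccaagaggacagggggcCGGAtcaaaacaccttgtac
TCRBV14-01 and TCRBJ02-07, tumor of 2.5E8 mouse 5: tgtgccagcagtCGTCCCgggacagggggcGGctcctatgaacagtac
TCRBV20-01 and TCRBJ01-06, tumor of 1E9 mouse 1: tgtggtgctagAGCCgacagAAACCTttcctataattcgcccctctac
TCRBV05-01 and TCRBJ02-04, blood of cured mouse 7: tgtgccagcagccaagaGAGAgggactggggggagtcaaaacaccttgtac
TCRBV05-01 and TCRBJ02-05, blood of cured mouse 7: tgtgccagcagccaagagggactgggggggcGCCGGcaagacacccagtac
TCRBV24-01 and TCRBJ02-05, shared CDR3: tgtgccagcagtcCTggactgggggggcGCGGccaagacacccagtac
TCRBV03-01 and TCRBJ02-05, shared CDR3: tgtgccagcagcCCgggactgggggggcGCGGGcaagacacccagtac
TCRBV12-01 and TCRBJ02-05, shared CDR3: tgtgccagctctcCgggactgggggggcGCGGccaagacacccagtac
TCRBV05-01 and TCRBJ02-04, tumor of mRBC-CTRL mouse 4: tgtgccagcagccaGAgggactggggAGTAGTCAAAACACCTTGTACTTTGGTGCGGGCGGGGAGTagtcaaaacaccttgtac

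Long CDR3s crowded against the lower limit of the rule. Of the 10532, 8528 (81.0%) had 17 residues, 1647 (15.6%) had 18 and 280 (2.66%) had 19, and 54 had 20. Only 23 had 21 or more, up to 29. Just outside the limit lay 32701 rearrangements of 16 residues. Those of 16 residues with a named D carried 4.91 N bases on average, and those of 17 residues 6.17, so that the limit cuts through a continuous series.

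Because length chose these receptors, their make-up is a description and was not tested. Among rearrangements with a named D segment, the long CDR3s were 9.77 bases longer than the others on average. N bases rose from 3.32 to 6.63 and supplied 33.9% of the extra length, the D segment rose from 7.15 to 9.95 bases and supplied 28.6%, the J segment from 18.02 to 20.4 bases (23.8%), and the V segment from 13.4 to 14.8 bases (13.7%). Each segment was trimmed less, and N bases were the largest of the 4 parts of the gain. The N bases were spread over the V-D and D-J joints at 3.28 and 3.36 per long rearrangement.

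Rearrangements deposited with no N base were nearly missing: 10 of 10532 long rearrangements (0.0949%) against 8.93% of the others. Long CDR3s with 6 or more N bases made up 64.2%, against 16.2% of the others. The J segment was untrimmed in 50.6% of long rearrangements and 26.8% of the others, and the V segment in 42.8% and 22.7%. A D segment kept whole was found in 10.1% of the long rearrangements with a named D and in 1.42% of the others.

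**Figure D1:**
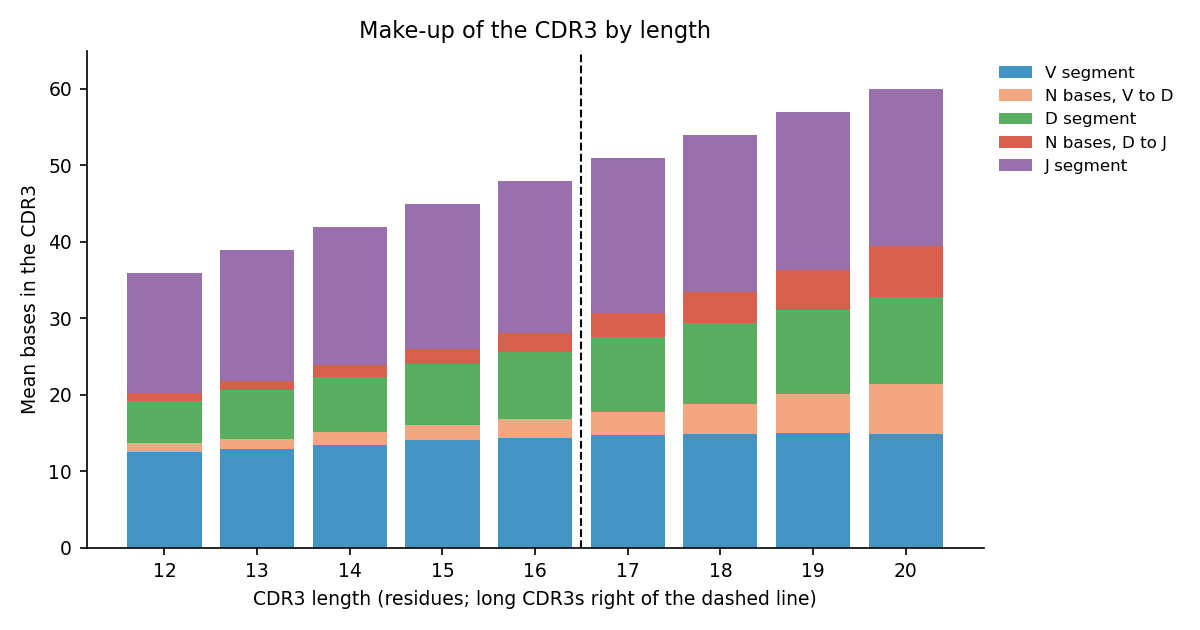
Mean bases of the CDR3 (y axis) that came from the V segment, N bases, the D segment and the J segment, by CDR3 length in residues (x axis), with the N bases of the 2 joints apart, for endogenous productive rearrangements with a named D segment. The dashed line marks the lower limit of 17 residues, and N bases climbed from 2.21 at 12 residues to 6.17 at 17 and 13.2 at 20, while the V and J parts levelled off.

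The D segments differ in length. Read from untrimmed rearrangements of these libraries, TCRBD01 was gggacagggggc (12 bases) and TCRBD02 was gggactgggggggc (14 bases). TCRBD02 was assigned to 66.4% of long rearrangements and 32.4% of the others, and TCRBD01 to 29.4% and 47.4%. The D segment could not be resolved in 4.17% of long rearrangements and in 20.3% of the others. TCRBD02 lies downstream of the TCRBJ01 cluster and so joins TCRBJ02 segments, and within the TCRBJ02 cluster it was the named D of 85.6% of long rearrangements and 57.4% of the others. In the TCRBJ01 cluster TCRBD02 was still the named D of 6.85% and 9.37%. The order of the segments does not provide for such a join. Some D names may therefore be wrong, which was not tested and also bears on the shares above.

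J use of long CDR3s was tested across 27 mice as the share of long against the share of other rearrangements within each mouse, by a sign-flip permutation test with 100000 resamples (2-sided, adjusted over 13 J segments). TCRBJ02-03 was used by 16.4% ± 2.77 (SD, n = 27 mice) of long rearrangements and 8.06% ± 0.532 of the others, TCRBJ02-04 by 16.2% ± 2.70 and 7.96% ± 0.296, and TCRBJ02-02 by 13.5% ± 2.74 and 5.47% ± 0.322. Each was higher in 27 of 27 mice (adjusted p = 1.44e-05 by permutation, from an unadjusted 1e-05, the smallest these resamples allow). TCRBJ02-01 (14.3% against 10.1%) and TCRBJ01-06 (5.03% against 3.08%) were also higher in long CDR3s, in 26 and 24 mice, with the same adjusted p.

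TCRBJ02-07, the J segment other rearrangements used most, fell from 19.95% ± 0.895 of those to 5.44% ± 1.61 of long CDR3s. TCRBJ01-01 fell from 11.0% to 1.55%, TCRBJ01-02 from 6.41% to 1.20%, and TCRBJ01-05 from 3.41% to 2.04%, in 27, 27 and 25 of 27 mice. The order follows germline length in part. Untrimmed, TCRBJ02-07 gives 19 bases to the CDR3 and TCRBJ01-01 and TCRBJ01-02 give 20, while TCRBJ02-03 and TCRBJ02-04 give 21, TCRBJ02-02 gives 23 and TCRBJ01-06 gives 25. TCRBJ01-04 gives 23 and TCRBJ01-05 gives 22, and of these TCRBJ01-05 was lower in long CDR3s and TCRBJ01-04 was used by 7.32% and 7.13% (adjusted p = 0.684 by permutation). Since the rule is on length, a longer J segment enters it more easily, and J use is not independent of it in that sense.

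V use differed for 20 of 26 V segments, 8 higher and 12 lower in long CDR3s (same test, adjusted over the 26). TCRBV05-01 rose from 6.30% ± 0.407 of other rearrangements to 13.5% ± 3.13 of long ones, and TCRBV02-01 from 5.45% ± 0.588 to 10.9% ± 2.64 (adjusted p = 1.86e-05 each by permutation, n = 27 mice). TCRBV24-01 rose from 1.21% to 3.47%, TCRBV01-01 from 5.46% to 7.76%, TCRBV13-02 from 11.3% to 12.9% and TCRBV16-01 from 5.39% to 6.81%. TCRBV19-01 fell from 7.61% to 4.39%, TCRBV31-01 from 5.51% to 2.83% and TCRBV20-01 from 3.37% to 0.866%. As with J, the bases of the V segment count towards the length that the rule uses, so these tests are not independent of it. Untrimmed, TCRBV20-01 and TCRBV31-01 give 14 bases to the CDR3, and TCRBV05-01, TCRBV02-01 and TCRBV24-01 give 17, as do TCRBV03-01 and TCRBV29-01, which were lower in long CDR3s. TCRBV12-01 and TCRBV12-02 did not pass the test, at 4.86% against 5.20% and 3.21% against 3.50%. TCRBV05-01 was also the V segment of 4 sequences printed above: the tumor clone of 2.5E8 mouse 5 with TCRBJ02-04, both clones of cured mouse 7 and the 29-residue CDR3.

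**Figure D2:**
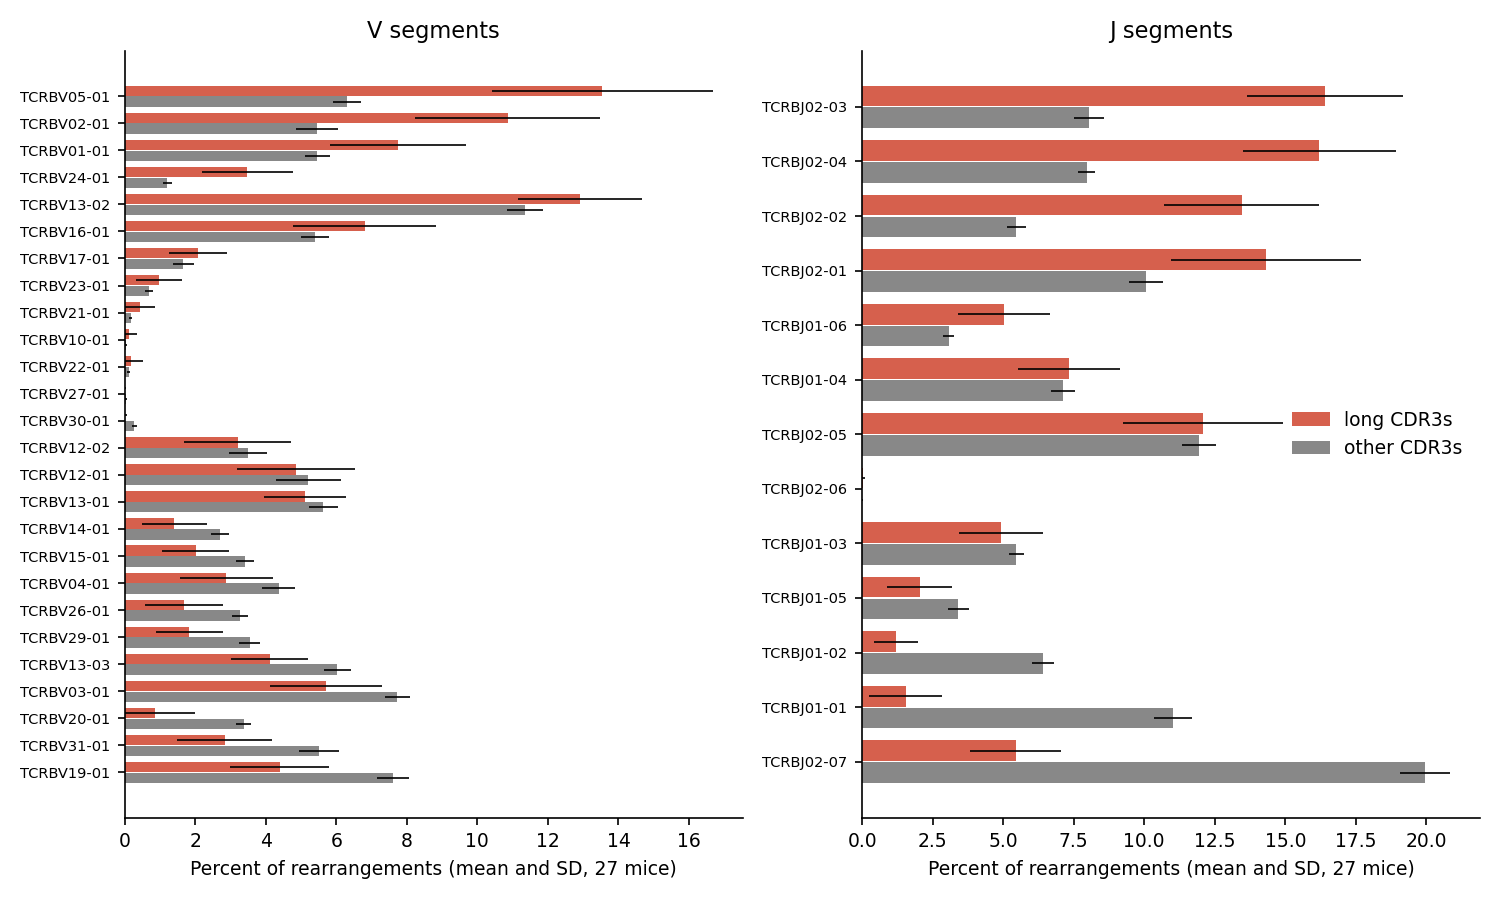
Use of V segments (left) and J segments (right) as a percentage of endogenous productive rearrangements (axes in percent), for long CDR3s and for all others, as means over 27 mice with SD bars. TCRBJ02-02, TCRBJ02-03 and TCRBJ02-04 stand above the others in long CDR3s, and TCRBJ02-07, TCRBJ01-01 and TCRBJ01-02 stand far below.

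The middle of long CDR3s, counted without the 4 residues at each end, held more glycine, which the G-rich D segments can encode. Glycine made up 25.6% ± 1.02 of these residues in long CDR3s and 22.2% ± 0.232 in others, higher in 27 of 27 mice, and alanine 8.69% and 7.61%, higher in 25 (adjusted p = 2.5e-05 each, permutation, over 20 residues). Threonine (5.43% against 6.79%), tyrosine (3.18% against 4.38%), asparagine (7.24% against 8.34%) and aspartate (7.88% against 8.87%) were lower. Long CDR3s hold more D and N bases by the make-up above, so these residue tests are not independent of the length rule either. In the middle, cysteine made up only 0.0979% of residues in long CDR3s and 0.0469% in others (adjusted p = 0.00293, permutation). A cysteine anywhere between the first and last residue was found in 8.36% of long CDR3s and 5.83% of the others. That count includes the ends, which V and J segments encode, and was read over all rearrangements pooled and without a test.

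The share of long CDR3s was measured in each library in 2 ways: among rearrangements, where each counts once, and among templates, where each counts by its templates. In blood, the rearrangement share lay between 1.87% and 3.51% (median 2.70%, 66 libraries) and the template share between 1.43% and 2.86%. In tumors the rearrangement share lay between 3.05% and 5.26% (median 4.02%, 15 libraries), while the template share spread from 0.618% to 6.70%. The template share was below the rearrangement share in 79 of 81 libraries.

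**Figure D3:**
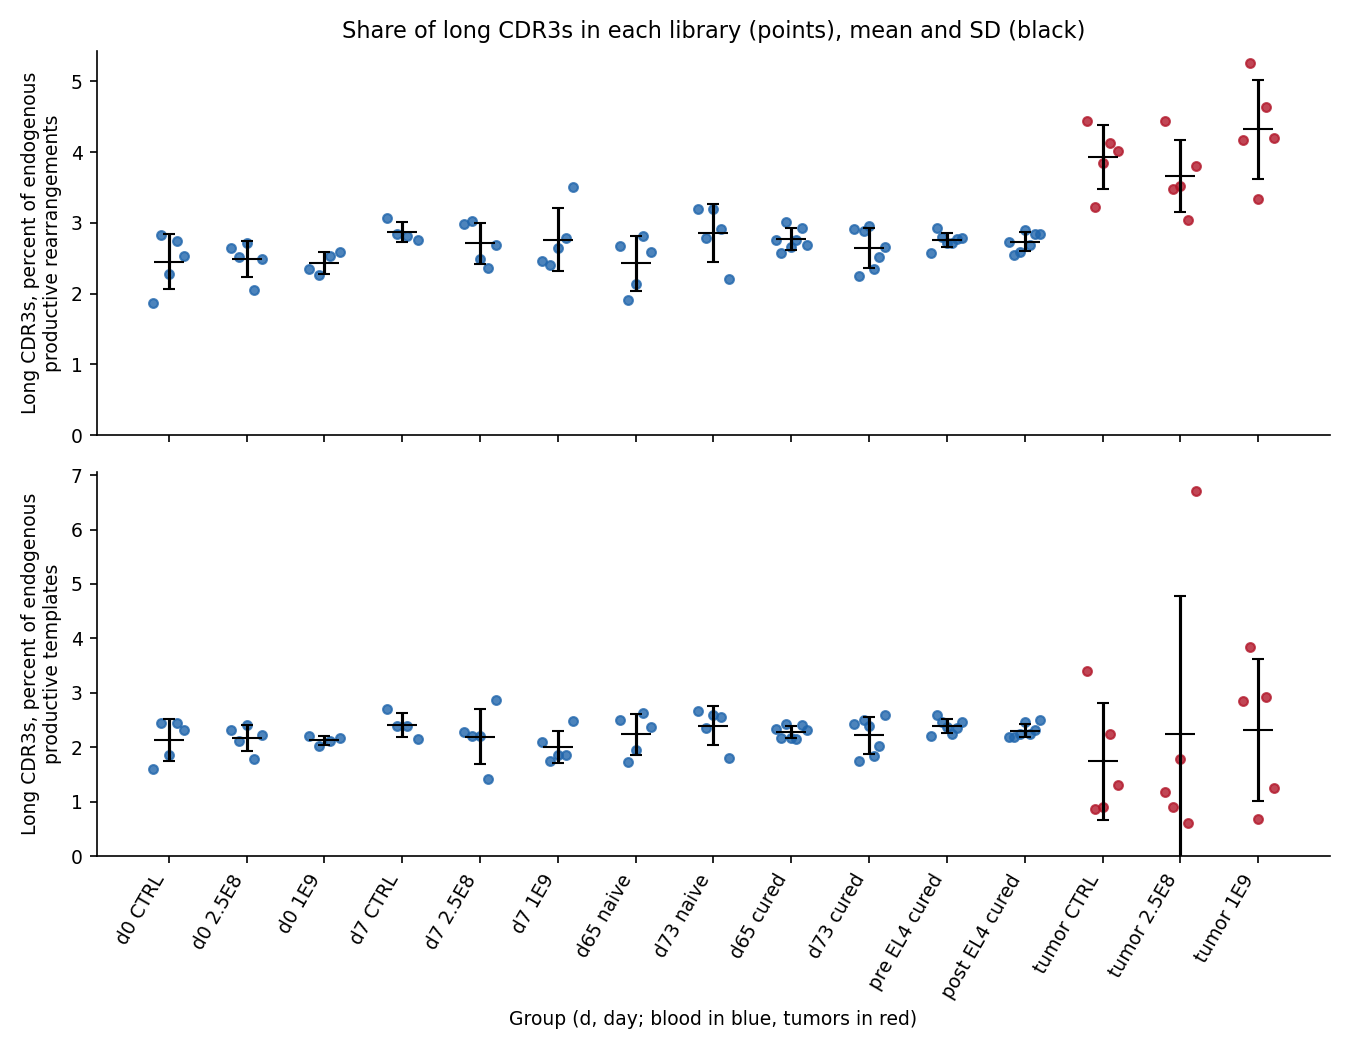
Long CDR3s as a percentage of endogenous productive rearrangements and of endogenous productive templates (y axes, percent) in each library (points), by group of tissue, arm and day (x axis), with the group mean and SD. SD bars that would pass below 0 end at the axis; tumors hold the highest rearrangement shares, and the 2.5E8 tumor at 6.70% stands apart in the template share.

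Long CDR3s were a larger share of the rearrangements in the tumor than in the day 7 blood of the same mouse, in 14 of 14 mice. In mRBC-CTRL mice 2 to 5, the share was 3.07%, 2.84%, 2.81% and 2.76% in blood and 3.22%, 3.85%, 4.13% and 4.02% in tumor. In 2.5E8 mice 1 to 5, it was 2.99%, 3.02%, 2.50%, 2.36% and 2.68% in blood and 4.44%, 3.48%, 3.53%, 3.05% and 3.81% in tumor. In 1E9 mice 1 to 5, it was 2.46%, 2.40%, 2.65%, 2.78% and 3.51% in blood and 4.17%, 5.26%, 3.34%, 4.64% and 4.197% in tumor. Tumor and blood overlapped across mice, since the highest blood value exceeded several tumor values, but within each mouse the tumor was above. The mean rose from 2.77% to 3.94%, a difference of 1.16 points ± 0.680 (SD, n = 14 mice), and an exact 2-sided sign-flip permutation test gave p = 0.000122, the smallest 14 pairs allow, and 0.00208 after adjustment over 17 comparisons.

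The difference was 0.932 points in mRBC-CTRL mice, 0.951 in the 2.5E8 arm and 1.56 in the 1E9 arm, and held in 4 of 4, 5 of 5 and 5 of 5 mice. Each exact sign-flip permutation p-value (0.125 for the 4 mRBC-CTRL mice) was the smallest that 4 or 5 mice can give, and none can reach 0.05. Counting templates in place of rearrangements, the mean was 2.20% in blood and 2.01% in tumor, with 4 of 14 tumors higher and an exact permutation p of 0.676 (adjusted 0.884).

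Tumors and blood differed in the number of templates read. When both libraries of a mouse were drawn down to the size of the smaller, the share was 2.74% in blood and 3.65% in tumor, higher in 12 of 14 mice (exact sign-flip permutation p = 0.00159, adjusted p = 0.027). When all libraries were drawn down to 482 templates, the difference was 0.714 points and did not pass (adjusted p = 0.492, exact permutation). With rearrangements of 18 or more residues alone it was 0.321 points (adjusted p = 0.266, exact permutation).

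**Figure D4:**
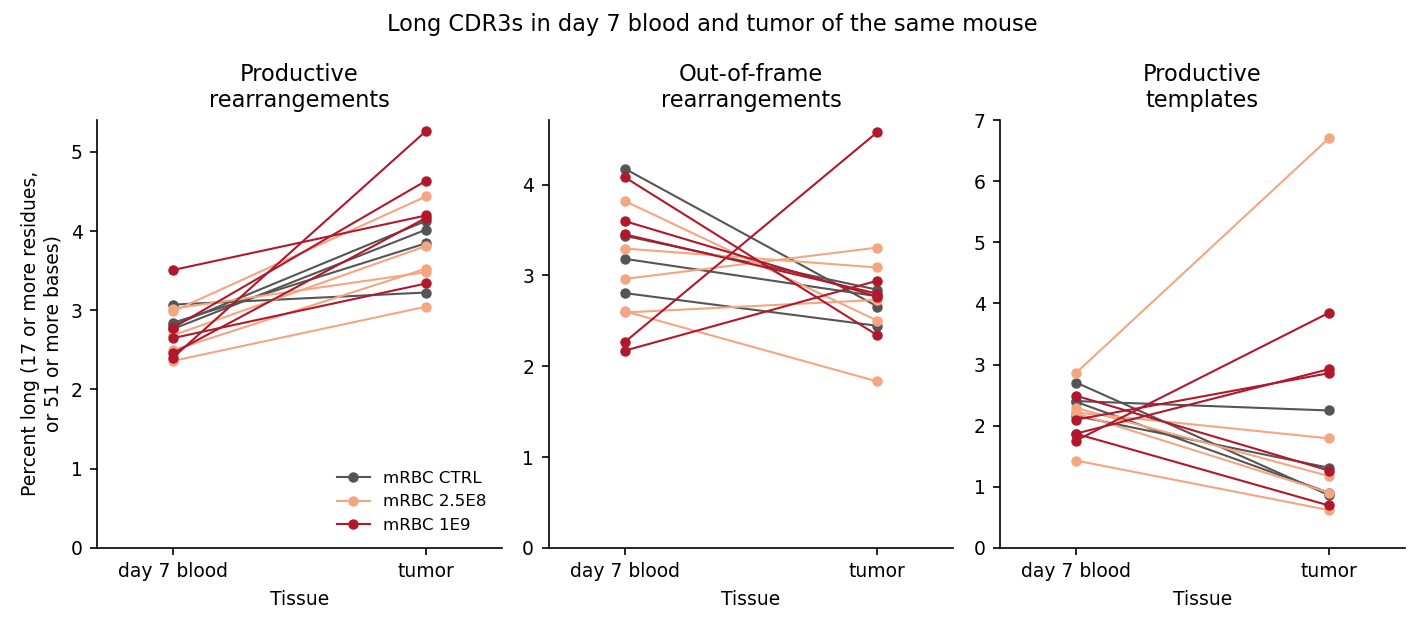
Percentage that was long (y axes) in the day 7 blood and the tumor of each of 14 mice, with a line for each mouse and colours for the arms, among endogenous productive rearrangements (left), out-of-frame rearrangements of 51 or more bases (middle) and endogenous productive templates (right). All 14 lines rise for productive rearrangements, from a mean of 2.77% to 3.94%, and 4 of 14 rise in each of the other panels.

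The shift was part of a movement of the whole length distribution in productive rearrangements. Mean CDR3 length was 13.91 residues in blood and 14.02 in tumor, higher in 14 of 14 mice (adjusted p = 0.000854, exact permutation, over 14 measures). CDR3s of 13 residues dropped from 20.2% to 18.3%, those of 15 went from 21.7% to 22.8%, of 16 from 8.91% to 9.93%, and of 17 from 2.23% to 3.07%. Long CDR3s rose among rearrangements with 1 template, from 3.37% to 4.85% (14 of 14 mice, adjusted p = 0.000854, exact permutation), and among those with 2 or more the share went from 1.62% to 2.35% (11 of 14 mice). The latter passed when adjusted over these 14 measures (adjusted p = 0.0397, exact permutation) and did not pass among the 17 share comparisons (adjusted p = 0.12).

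Out-of-frame rearrangements, which a cell carries on the other chromosome and which encode no receptor, moved the other way in mean length. Those with a CDR3 of 51 or more bases made up 3.17% of out-of-frame rearrangements in blood and 2.83% in tumor (higher in 4 of 14 mice, exact permutation p = 0.233). Their mean length decreased, from 42.6 to 42.13 bases (adjusted p = 0.0047, exact permutation). The long share of productive minus that of out-of-frame rearrangements was -0.400 points in blood and 1.11 in tumor, higher in tumor in 13 of 14 mice (adjusted p = 0.00228, exact permutation). OT-1 and lymphoma receptors were left out of the productive side only. Any out-of-frame rearrangements of OT-1 or lymphoma cells stayed in. In-frame rearrangements made up 63.6% in blood and 61.0% in tumor, higher in tumor in 4 of 14 mice (adjusted p = 0.0397, exact permutation). What part OT-1 and lymphoma cells had in the shorter out-of-frame CDR3s of tumors was not tested. N bases per long rearrangement were 6.80 in blood and 7.00 in tumor, which did not pass the test (p = 0.267, exact permutation, n = 14 mice). Other rearrangements, which were far more numerous, held 3.36 N bases in blood and 3.48 in tumor. That was higher in tumor in 12 of 14 mice and passed the test (adjusted p = 0.0106, exact permutation). The cell types in the tumor were not sorted, and which cells carried these receptors was not measured.

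Across all libraries of a mouse, long CDR3s made up 2.92% ± 0.300 of endogenous productive rearrangements and 2.99% ± 0.253 of out-of-frame ones (n = 27 mice, permutation p = 0.358). An out-of-frame CDR3 cannot have 51 bases, so this limit falls between 50 and 52 bases. With 50 bases counted as long, the out-of-frame share was 6.08%. With 16 or more residues taken as long, the productive minus out-of-frame difference turned from -0.0736 to 1.11 points, and with 18 or more it was -0.172 (permutation p = 1e-05 and 0.0002). In blood it was -0.372 points and in tumors 1.15 (permutation p = 1e-05 and 0.000183).

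No comparison between arms, days or cured and naive mice passed the test after adjustment over the 17 comparisons of each measure. In tumors, the rearrangement share was 3.93% ± 0.449 in mRBC-CTRL mice, 3.66% ± 0.513 in the 2.5E8 arm and 4.32% ± 0.706 in the 1E9 arm (SD, n = 5 each), and the ranges of the arms overlapped. The 1E9 minus mRBC-CTRL difference was 0.390 points (exact permutation p = 0.317, adjusted 0.491). Template shares in tumors were 1.74% ± 1.08, 2.24% ± 2.53 and 2.32% ± 1.298. In day 7 blood the rearrangement shares were 2.87% ± 0.137 (n = 4), 2.71% ± 0.293 (n = 5) and 2.76% ± 0.445 (n = 5).

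From day 0 to day 7, the rearrangement share in blood went up in 4 of 4 mRBC-CTRL mice, 4 of 5 mice of the 2.5E8 arm and 4 of 4 of the 1E9 arm, by 0.277, 0.224 and 0.402 points. The exact sign-flip permutation p-values were 0.125, 0.188 and 0.125 (adjusted 0.360, 0.398 and 0.360), and 4 mice cannot reach below 0.125. In cured mice the share on days 65 and 73 was 2.77% ± 0.153 and 2.64% ± 0.286, and before and after EL4 it was 2.76% ± 0.104 and 2.73% ± 0.137 (n = 7). In naive mice it was 2.43% ± 0.386 on day 65 and 2.86% ± 0.404 on day 73 (n = 5). On day 65 cured mice lay 0.343 points above naive mice (exact permutation p = 0.0505, adjusted 0.322).

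Long CDR3s were more often single templates than other CDR3s were. In each mouse, 16.3% ± 5.54 of long rearrangements and 30.4% ± 5.07 of the others had 2 or more templates, lower for long CDR3s in 27 of 27 mice (permutation p = 1e-05, the smallest 100000 resamples give). The mean was 1.40 templates per long and 2.12 per other rearrangement. In tumors, 21.9% of long and 37.1% of other rearrangements had 2 or more templates, lower in 15 of 15 mice (exact permutation p = 6.1e-05), with means of 2.23 and 5.06 templates. Of all long rearrangements, 86.8% had 1 template, against 73.1% of the others. Across mice the library depths that set these percentages differed, while long and other rearrangements of a mouse shared theirs. Pooled over blood libraries and without a test, long CDR3s made up 3.18% of rearrangements with 1 template and 1.26% with 2 to 4. They made up 1.29% with 5 to 9, 2.19% with 10 to 49, and 0 of 65 with 50 or more. In tumors the values were 4.86%, 2.48%, 2.07%, 2.67% and 1.14%. The drop lay mainly between 1 template and 2 to 4.

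In blood, the share with 2 or more templates dropped at each step from 12 to 18 residues. It was 35.5% at 12 residues, 25.8% at 14, 16.46% at 16, 12.7% at 17 and 10.2% at 18. It was 34.9% at 11 residues, and 6.22% and 6.25% at 19 and 20, which held 241 and 48 rearrangements. Out-of-frame rearrangements 1 base longer than 12, 14, 16, 17 and 18 residues followed at 25.97%, 18.8%, 12.1%, 9.90% and 9.66%, with 12.3% of 130 at 19 residues. Long out-of-frame rearrangements had 2 or more templates in 12.9% ± 4.96 of cases and the others in 20.97% ± 3.91, lower in 27 of 27 mice (permutation p = 1e-05). In blood, counts of 2 templates were common and higher counts rare: 259582 endogenous rearrangements had 1 template, 71979 had 2, 15783 had 3 and 1193 had 4. Yet only 0.498% of other rearrangements of day 0 were found again on day 7, and 0.593% of those of day 65 on day 73. Whether 2 or 3 templates stand for separate cells was not tested, so these percentages are not a measure of clone size in cells.

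The difference also held at like numbers of N bases. With 3 to 5 N bases, 15.2% of long and 29.9% of other productive rearrangements had 2 or more templates, with 6 to 8 N bases 15.4% and 29.0%, and with 9 or more 17.8% and 23.8% (adjusted p = 1.67e-05, 1.67e-05 and 0.000137, permutation, over 10 groups). Out-of-frame rearrangements with 0 to 2, 3 to 5 and 6 to 8 N bases were also lower when long, at 9.69% and 21.3%, 11.03% and 21.6%, and 11.3% and 20.1% (adjusted p = 0.0115, 1.67e-05 and 1.67e-05, permutation). With 9 or more N bases the out-of-frame values were 16.3% and 14.8% (adjusted p = 0.286, permutation).

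**Figure D5:**
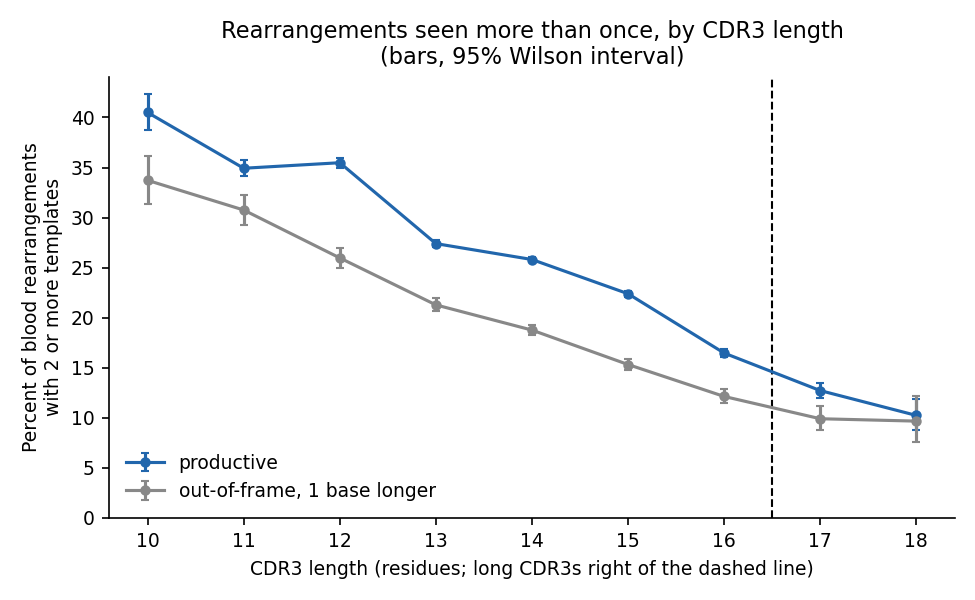
Percentage of blood rearrangements with 2 or more templates (y axis) by CDR3 length (x axis, residues), for endogenous productive rearrangements and for out-of-frame rearrangements 1 base longer, with 95% Wilson intervals as bars and the dashed line at the limit for long CDR3s. Both curves decline, from 35.5% and 25.97% at 12 residues to 12.7% and 9.90% at 17.

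Long CDR3s were rarely shared between mice. In each mouse, 6.18% ± 1.32 of its long CDR3s and 45.5% ± 2.23 of its other CDR3s occurred in at least 1 other mouse, lower for long CDR3s in 27 of 27 mice (permutation p = 1e-05). A shared CDR3 counts in every mouse that holds it, so the values of the 27 mice are not independent, which this p-value does not allow for. Over the series, 266 of 9772 long CDR3s (2.72%) and 43611 of 226583 others (19.2%) were found in 2 or more mice. The most shared long CDR3 reached 6 mice and the most shared other CDR3 reached 25.

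The 3 most shared long CDR3s, found in 6, 5 and 5 mice, all had 17 residues and a near-whole TCRBD02. They were written in different nucleotides. The CDR3 of 6 mice, 3 of whose versions are printed above, came from 6 nucleotide rearrangements with TCRBV05-01, TCRBV03-01, TCRBV24-01 and TCRBV12-01, each listed in 1 mouse, with 5 to 7 N bases and 10 templates in total. Both CDR3s of 5 mice used TCRBJ02-01 and came from 6 and 5 nucleotide rearrangements, again each in 1 mouse. One version of the third, with TCRBV29-01, reached 28 templates in the tumor of 2.5E8 mouse 3.

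At the nucleotide level only 25 of 10403 long rearrangements were listed in 2 or more mice, and at most in 3. They had a median of 4 N bases, against 6 for all long rearrangements. One of the 25 had 10 N bases: the TCRBV20-01 and TCRBJ01-06 clone printed above, with 44 templates in the tumor and 11 in the day 7 blood of 1E9 mouse 1, and 1 template in the tumor of 1E9 mouse 2. Whether that 1 template arose in its own mouse was not tested.

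Few long rearrangements were found in another library of the same mouse. Of 1127 long rearrangements in tumors, 44 were found in the blood of the same mouse, taken on day 7 or before the dose on day 0. Averaged over 15 mice, 5.85% ± 4.09 of long and 8.71% ± 4.86 of other tumor rearrangements were found in blood, lower for long CDR3s in 15 of 15 mice (exact permutation p = 6.1e-05). With 18 or more residues taken as long the difference turned from -2.86 to 3.09 points (exact permutation p = 0.906). From day 0 to day 7 blood, 4 of 1613 long rearrangements were found again, 0.256% per mouse against 0.498% of the others (permutation p = 0.0657). From day 65 to day 73, 13 of 1749 were found again, 0.867% per mouse against 0.593% of the others (exact permutation p = 0.685, n = 12). From the bleed before EL4 to that after it in cured mice, 1.72% of long and 1.49% of other rearrangements were found again (exact permutation p = 0.531, n = 7). These percentages depend on how deeply both libraries were read. They were not matched for template count, and long tumor rearrangements had fewer templates than the others.

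Single clones were compared between libraries of a mouse by Fisher's exact test on templates, for rearrangements with 5 or more templates in both libraries together, with Benjamini-Hochberg adjustment within the mouse. The test compares the 2 libraries and not the conditions. A rearrangement could reach 5 templates in 1 library alone, which favours a call in that direction. Between tumor and day 7 blood, 14 of 50 long rearrangements were higher in tumor (28%), beside 30.5% of all 2279 tested, and 1 was lower, beside 3.55% of all. Between day 7 and day 0 blood, 3 of 8 were higher, beside 54.7% of all tested, and 0 lower, beside 2.71%, with 0 lower at an unadjusted p under 0.05 also. In cured mice, 2 of 3 were higher on day 73 than on day 65, beside 26.4% of all tested, and 0 were lower, beside 1.04% (0 at an unadjusted p under 0.05). Between the bleeds before and after EL4, 0 of 4 were called by Fisher's exact test, with or without adjustment at 0.05, beside 8.36% higher and 14.9% lower of all tested. In naive mice none of 51 rearrangements tested was long, and 15.7% of them were higher and 21.6% lower.

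The largest long clones were in tumors. The TCRBV13-02 and TCRBJ01-04 clone held 287 of 16648 endogenous templates (1.72%) in the tumor of mRBC-CTRL mouse 1 and 0 of 3695 in its day 0 blood, which allows a share of up to 0.0812%. Its N bases numbered 4. This clone had no day 7 blood library to be compared with.

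In 2.5E8 mouse 5, the TCRBV05-01 and TCRBJ02-04 clone held 226 of 6727 templates (3.36%) in tumor, 16 of 2830 (0.565%) in day 7 blood and 0 of 9821 in day 0 blood, which allows up to 0.0305%. It was higher in tumor than in day 7 blood and higher on day 7 than on day 0 (adjusted p = 2.22e-17 and 3.68e-10 by Fisher's exact test). The TCRBV14-01 and TCRBJ02-07 clone of the same mouse held 118 templates (1.75%) in tumor, 2 in day 7 blood and 0 in day 0 blood (adjusted p = 1.96e-14 for tumor against day 7 blood, Fisher's exact test). Together these clones gave 344 templates, and without them the long template share of that tumor was 1.68% in place of 6.70%. In 1E9 mouse 1 the TCRBV20-01 and TCRBJ01-06 clone held 1.48% of the tumor and 0.246% of day 7 blood (adjusted p = 1.62e-08, Fisher's exact test). These clones were named for their size in the tumor, so the direction of their tumor against blood tests was not independent of that choice. The TCRBV05-01 and TCRBJ02-04 clone was also named as the largest long clone in day 7 blood of its arm. In blood it passed the filter of 5 templates through day 7 alone. The direction of its day 7 against day 0 test was therefore not independent either.

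Further long clones higher in tumor were smaller. In mRBC-CTRL mouse 4, TCRBV12-02 with TCRBJ01-03 counted 48 templates in tumor and 0 in day 7 blood, and TCRBV24-01 with TCRBJ02-03 counted 33 and 2. In 1E9 mouse 4, TCRBV23-01 with TCRBJ01-03 counted 36 and 0. The 1 long clone lower in tumor, TCRBV02-01 with TCRBJ01-05 in 2.5E8 mouse 3, counted 15 templates in tumor and 10 in the smaller day 7 blood library (adjusted p = 0.0334, Fisher's exact test). Tumors held 26 long rearrangements of 10 or more templates and blood held 7, the largest of the latter at 16 templates. Other endogenous clones reached 4447 templates in a tumor and 383 in blood.

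Both long clones called after rechallenge belonged to cured mouse 7, had 18 residues and used TCRBV05-01. The clone with TCRBJ02-04 counted 0, 15, 9 and 4 templates on days 65 and 73 and before and after EL4, of 11991, 4693, 10973 and 9169 endogenous templates, and was higher on day 73 than on day 65 (adjusted p = 5.1e-08, Fisher's exact test). The clone with TCRBJ02-05 counted 7, 11, 9 and 6 templates at the same bleeds (adjusted p = 0.0178 for day 73 against day 65, Fisher's exact test). The first was thus absent or below 0.025% before the EG7.OVA rechallenge and listed at each later bleed, and the second was listed at all 4. As 1 mouse held both, they are no count of mice. The first passed the filter of 5 templates through day 73 alone.

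The longest CDR3s were single templates. The 29-residue CDR3 printed above was deposited with 42 N bases, 40 of them at the D-J joint. Its N run repeats 18 bases of TCRBJ02-04 before the J segment itself begins. Not all of that run can therefore be taken as bases that no segment encodes. A run of 12 or more bases of the rearrangement's own J segment within the N bases was found in 4 of 64 long rearrangements with 12 or more N bases at that joint, and these 4 were the CDR3s of 26 to 29 residues. Rearrangements read as holding 2 D segments (VDDJ) numbered 13 among long CDR3s, in 10 mice, and 0 among the others. Those read as VDDJ in any reading frame numbered 36, the shortest at 50 bases.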

How the data were processed

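The β chain of the T cell receptor was sequenced from genomic DNA of blood and tumor with the immunoSEQ assay, a multiplex PCR followed by sequencing, and analysed in immunoSEQ Analyzer v3.0; the aligner and reference build are not given in the sources used here. The authors deposited, for each of 81 libraries, 1 line per nucleotide rearrangement with template counts, the fraction of all templates (equal to the count share in 81 of 81 libraries, although headed as a percentage), and other deposited columns with V, D and J names, N bases, frame and CDR3. Counts were used and the fraction was only checked. Productive templates ranged from 2355 to 77041 per library. No read was reprocessed.

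Samples were grouped by their labels. Each mouse is the replicate. Shares were compared between groups by exact 2-sided permutation tests over mice, within mice by exact sign-flip permutation (100000 resamples for 27 mice), and single clones by Fisher's exact test, with Benjamini-Hochberg adjustment at 0.05. Intervals and limits (3 counts for a count of 0) cover counting error only. The scripts were tested on simulated data. Named clones were those of 1% or more of a library's endogenous templates, the largest long clone of each group, the 3 most shared and the longest. The members, lists and tests were chosen with earlier results of these data known. V, J, D and residue shares depend on the deposited segment calls, PCR bias between V primers remains in all counts, and sequencing errors of a large clone can appear as small ones. Rearrangements 1 or 2 bases from a larger clone of the same library made up 0.223% of long rearrangements in blood and 1.69% in tumor. Variants with equal template counts are not part of these values. Amino acid sequences of long CDR3s are not printed. Mouse numbers were taken as pairs within an animal only, and between arms the deviations of same-numbered tumors correlated at -0.239 (templates) and -0.152 (rearrangements), and those of same-numbered cured and naive mice, which are different animals, at 0.452 and 0.457 over 10 pairs. Analyses used Python 3.11.15, numpy 2.4.6, pandas 2.3.3, scipy 1.17.1 and matplotlib 3.10.9.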

Additional observations from a re-analysis of the deposited data

Results flagged for a closer look

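The tumor of 2.5E8 mouse 5 had a long template share of 6.70%, far from the other 4 tumors of its arm, of which the next highest was at 1.79%. Its gap to the nearest tumor was 0.807 of the arm's range. It was 1 of 30 combinations of group and measure examined, where chance flags about 1 in 20. The 2 clones of 226 and 118 templates made up most of the share, which was 1.68% without them, and its rearrangement share of 3.81% lay within the range of its arm.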

How the results depend on the processing

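The higher rearrangement share in tumors kept its direction under every alternative run and stayed between 1.03 and 1.24 points with any 1 of the 14 mice left out, and it lost its call under 3 settings given below. Leaving out near variants of larger clones, an alternative chosen after seeing the data like the drawing down by pairs and the split by arm, gave 1.18 points. The lower share with 2 or more templates and the lower sharing of long CDR3s kept their direction throughout. The former lost its call in tumors with 18 or more residues, at -12.1 points. Of 102 results under 1183 alternative values, 62 under other settings and 22 with 1 mouse left out turned the sign, and of the results concerned only the refinding of tumor rearrangements in blood had passed the test; the cause was not tested. Differences are in percentage points except on the log2 scale. With 16 or more residues as the limit, the template share difference was -0.971 for 1E9 minus mRBC-CTRL tumors, -1.45 for 2.5E8 minus mRBC-CTRL tumors, -0.00842 for day 7 minus day 0 blood of mRBC-CTRL mice, 0.104 for after minus before EL4 in cured mice, -0.146 for day 73 minus day 65 in naive mice, -0.129 for cured minus naive mice on day 65, 0.0624 for the day 65 to 73 change in cured minus naive mice, 0.115 for the day 0 to 7 change in 2.5E8 minus mRBC-CTRL mice, -2.89 for tumor minus day 7 blood in 2.5E8 mice and -1.05 for tumor minus day 7 blood in 1E9 mice. With 16 or more residues as the limit, the rearrangement share difference was -0.358 for 1E9 minus mRBC-CTRL tumors, 0.248 for 1E9 minus mRBC-CTRL day 7 blood, 0.557 for 2.5E8 minus mRBC-CTRL day 7 blood, -0.309 for 1E9 minus 2.5E8 day 7 blood, 0.153 for after minus before EL4 in cured mice and 0.696 for the day 0 to 7 change in 2.5E8 minus mRBC-CTRL mice. With 18 or more residues, the template share difference was 0.0385 for day 7 minus day 0 blood of 1E9 mice, 0.0851 for day 73 minus day 65 in cured mice, -0.113 for before EL4 minus day 73 in cured mice, 0.0799 for after minus before EL4 in cured mice, -0.0179 for cured minus naive mice on day 65, 0.013 for cured minus naive mice on day 73, 0.0308 for the day 65 to 73 change in cured minus naive mice, 0.0308 for the day 0 to 7 change in 1E9 minus mRBC-CTRL mice, 0.101 for the day 0 to 7 change in 2.5E8 minus mRBC-CTRL mice and -0.122 for tumor minus day 7 blood in 2.5E8 mice. With 18 or more residues, the rearrangement share difference was 0.00756 for 2.5E8 minus mRBC-CTRL tumors, -0.00529 for 1E9 minus 2.5E8 day 7 blood, 0.321 for tumor minus day 7 blood over all arms (adjusted p of 0.05 or more), 0.0129 for day 73 minus day 65 in cured mice, -0.0856 for before EL4 minus day 73 in cured mice, 0.0943 for after minus before EL4 in cured mice and 0.112 for the day 0 to 7 change in 2.5E8 minus mRBC-CTRL mice. With OT-1 and lymphoma receptors kept in the denominator, the template share difference was -0.0802 for 1E9 minus mRBC-CTRL tumors, -0.235 for 1E9 minus 2.5E8 tumors, -1.61 for 1E9 minus mRBC-CTRL day 7 blood (adjusted p under 0.05), -1.37 for 1E9 minus 2.5E8 day 7 blood (adjusted p under 0.05), -1.19 for tumor minus day 7 blood over all arms (adjusted p under 0.05), -0.585 for day 73 minus day 65 in cured mice (adjusted p under 0.05), 0.566 for before EL4 minus day 73 in cured mice (adjusted p under 0.05), -0.725 for cured minus naive mice on day 73 (adjusted p under 0.05), -0.957 for the day 65 to 73 change in cured minus naive mice (adjusted p under 0.05), -1.43 for tumor minus day 7 blood in 2.5E8 mice and -0.296 for tumor minus day 7 blood in 1E9 mice. With OT-1 and lymphoma receptors kept in the denominator, the rearrangement share difference was -0.000228 for 1E9 minus 2.5E8 day 7 blood. Without rearrangements of 1 template, the template share difference was -0.346 for 1E9 minus 2.5E8 tumors, 0.0488 for 2.5E8 minus mRBC-CTRL day 7 blood, 0.188 for tumor minus day 7 blood over all arms, -0.592 for day 73 minus day 65 in naive mice, -0.642 for cured minus naive mice on day 65, 0.558 for the day 65 to 73 change in cured minus naive mice and 0.124 for the day 0 to 7 change in 2.5E8 minus mRBC-CTRL mice. Without rearrangements of 1 template, the rearrangement share difference was 0.00515 for 2.5E8 minus mRBC-CTRL tumors, 0.164 for 1E9 minus mRBC-CTRL day 7 blood, 0.728 for tumor minus day 7 blood over all arms (adjusted p of 0.05 or more), -0.592 for day 73 minus day 65 in naive mice, -0.583 for cured minus naive mice on day 65, 0.423 for the day 65 to 73 change in cured minus naive mice and 0.00116 for the day 0 to 7 change in 2.5E8 minus mRBC-CTRL mice. With libraries drawn down to 482 templates, the template share difference was -0.0415 for tumor minus day 7 blood in 2.5E8 mice. With libraries drawn down to 482 templates, the rearrangement share difference was 0.105 for 2.5E8 minus mRBC-CTRL tumors, 0.714 for tumor minus day 7 blood over all arms (adjusted p of 0.05 or more) and 0.000421 for day 73 minus day 65 in cured mice. On the log2 scale, the template share difference was -0.0029 for day 7 minus day 0 blood of 2.5E8 mice and -0.323 for tumor minus day 7 blood in 2.5E8 mice. Without the most abundant endogenous clone of each library, the template share difference was 0.0258 for day 7 minus day 0 blood of 1E9 mice and 0.095 for tumor minus day 7 blood over all arms. Counting OT-1 and lymphoma templates in the denominator lowers every long share where those receptors abound, by construction.

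Refinding of tumor rearrangements in blood turned to 3.09 points with 18 or more residues, that of rearrangements from before EL4 after it to -0.328 with 16 or more, and that of day 0 rearrangements on day 7 passed the test at -0.209 with 16 or more. The productive minus out-of-frame share was 1.11 with 16 or more residues and 1.15 in tumors, both past the threshold, and 0.132 in treatment mice (permutation p = 0.196), and was -0.172 with 18 or more residues, -0.372 in blood, -0.420 weighted by templates, -3.17 with out-of-frame CDR3s of 50 bases counted, -7.28 against stop-codon rearrangements and -0.330 in rechallenge mice, these 6 also past the threshold. Residues called lower in long CDR3s numbered 8, against 13 with 16 or more residues, 3 in tumors alone and 5 weighted by templates, and V segments called higher numbered 8, against 4 with 18 or more residues. Long clones called higher in tumor than in day 7 blood numbered 14, against 8 at an adjusted p under 0.01 and 3 with all productive templates in the denominator, those called lower 1, against 0 and 4, and those called higher on day 73 than on day 65 in cured mice 2, against 1 and 1 (Fisher's exact test).

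With 1 mouse left out, the template share differences that changed sign ranged from -0.0815 to 0.144 for cured minus naive mice on day 65, -0.268 to 0.012 for the day 0 to 7 change in 2.5E8 minus mRBC-CTRL mice, -0.326 to 1.2 for 1E9 minus 2.5E8 tumors, -0.146 to 0.683 for tumor minus day 7 blood in 1E9 mice, -0.623 to 0.908 for 2.5E8 minus mRBC-CTRL tumors, -0.127 to 0.124 for day 7 minus day 0 blood of 2.5E8 mice and -0.913 to 0.373 for tumor minus day 7 blood in 2.5E8 mice. The rearrangement share differences that did so ranged from -0.0578 to 0.0349 for after minus before EL4 in cured mice, -0.122 to 0.0588 and -0.0487 to 0.240 for the day 0 to 7 change in 2.5E8 and 1E9 minus mRBC-CTRL mice, and -0.137 to 0.139 for 1E9 minus 2.5E8 day 7 blood. With the replicate number as a block between arms and between cured and naive mice, which share only a number, no call changed, and the 1E9 minus mRBC-CTRL difference in tumors was 0.390 points and the cured minus naive difference on day 65 was 0.327. Without the pairing by mouse, the tumor minus blood differences in rearrangement share were 1.06, 0.951 and 1.56 points in mRBC-CTRL, 2.5E8 and 1E9 mice and all passed the exact permutation test. Depth limits the small shares most: a library of 482 templates held 10 long rearrangements.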
